A study of Mus musculus with 15 samples.

Results

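Aortic valves of mice with short telomeres alone were compared with aortic valves of mice lacking 1 copy of Notch1 alone. The first group, N1WT/TercG2, was wild type for Notch1 and of generation 2 of a Terc-/- line. The second, N1het/TercWT, was heterozygous for Notch1 and wild type for Terc. The comparison drew on 7 of the 15 libraries of the series, 3 from N1WT/TercG2 and 4 from N1het/TercWT mice, and took in all 18073 genes of the deposited table. The other 8 libraries, 4 from N1het/TercG2 mice with both changes and 4 from N1WT/TercWT mice with neither, serve as context. All mice were C57BL/6 and 2 months old, and 3 leaflets were taken from each mouse and digested with collagenase before RNA was isolated. Neither the Notch1 allele nor the sex of the mice is stated in the labels. The title of the series asks whether telomere length alters the disease caused by losing 1 copy of Notch1.

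Notch1 is a receptor that is cut on contact with a ligand on a neighbouring cell, after which its intracellular part enters the nucleus and switches on genes of the Hes and Hey families. It is needed for normal development of the aortic valve, and inherited loss of 1 copy causes malformed and calcified aortic valves in people. Terc is the RNA template from which telomerase copies telomere repeats. Laboratory mice have long telomeres, so that mice without Terc are bred with each other over generations before their telomeres become short.

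The deposited table gives 1 value per gene and group in FPKM, a fragment count divided by transcript length and by library size. Replicate spread and read depth are therefore unknown, no value below carries an error, and no difference has a replicate check or a test. Whether the libraries of the groups overlap cannot be seen. Differences are log2(FPKM + 1) in N1WT/TercG2 minus log2(FPKM + 1) in N1het/TercWT valves, a scale that understates differences of genes with low values. A gene is past 4-fold where FPKM + 1 differed at least 4-fold. Since the groups differ in both genes, a difference between them cannot be assigned to either change from this pair alone, and levels in the other groups are given beside it.

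The labels were first checked on the targeted genes. Terc (ENSMUSG00000064796) was listed at 0 in N1WT/TercG2 and at 4.52 FPKM in N1het/TercWT valves, and at 0 in N1het/TercG2 and 1.42 FPKM in N1WT/TercWT valves. A value of 0 is a weak check, since 2010 genes were listed at 0 in N1WT/TercG2 and 1181 in N1het/TercG2 valves. Notch1 (ENSMUSG00000026923) stood at 16.6 FPKM in N1WT/TercG2 and 25.1 FPKM in N1het/TercWT valves, against 23.3 FPKM in N1het/TercG2 and 39.1 FPKM in N1WT/TercWT valves. Notch1 mRNA was thus lower in the N1WT/TercG2 group, which has both copies, than in the N1het/TercWT group, a log2 difference of -0.57. The pooled Notch1 level therefore goes against the Notch1 label of this pair, which also differs in Terc. Between the groups wild type for Terc, Notch1 was lower in the heterozygous one, in the order of the label. Between the TercG2 groups it was higher in the heterozygous one. Group names below are the labels as given, and every direction given for the group labelled N1WT/TercG2 rests on that label. Exons of Notch1 share bases with 2 transcripts on the opposite strand in the reference annotation, and the library kit does not keep the strand. Markers of the labelled tissue were abundant in both groups. Decorin, a small proteoglycan of the valve matrix, stood at 4698 FPKM in N1WT/TercG2 and 2255 FPKM in N1het/TercWT valves, and the endothelial adhesion molecule Pecam1 stood at 108 FPKM in N1WT/TercG2 and 106 FPKM in N1het/TercWT valves.

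Over all genes, 5875 were higher and 12060 lower in N1WT/TercG2 valves. Past 4-fold, 360 genes (1.99% of 18073) were higher and 1123 (6.21%) were lower. Among the 6914 genes with a mean of 10 FPKM or more, 172 (2.49%) were higher and 286 (4.14%) lower past 4-fold. The median difference of all genes was -0.34, and list medians below are given relative to it, called relative medians, wherever the text does not say "as deposited". Counts of higher and lower members are as deposited, and are read beside the 12060 of 18073 lower over all genes. Lower counts of 7 of 10 telomerase, 13 of 18 interferon-stimulated and 10 of 16 clock genes were near that share. So were 15 of 22 nuclear respiratory chain and 11 of 17 B cell genes. The same held for 9 of 14 dendritic cell and MHC class II genes and 5 of 8 Schwann and neural genes. The median difference also depended on level. It was -0.58 for genes with a mean over 1 to 10 FPKM, -0.17 over 10 to 100 FPKM and 0.18 over 100 FPKM. Relative medians are not corrected for level, and those of 32 of the 43 lists were above 0. The groups also differed in make-up. Mitochondrial genes made up 32.5% of summed FPKM in N1WT/TercG2 and 10.01% in N1het/TercWT valves, against 35.0% in N1het/TercG2 and 14.4% in N1WT/TercWT valves. Short transfer RNA genes, for which FPKM is a poor measure, made up 76.5% of that mitochondrial sum in N1WT/TercG2 and 71.2% in N1het/TercWT valves, and 11 listed mitochondrial genes have no row. In N1WT/TercG2 valves 2010 genes were listed at 0, against 250 in N1het/TercWT valves, and 1872 were listed at 0 in N1WT/TercG2 alone. The part of these differences in the results below was not tested.

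**Figure D1:**
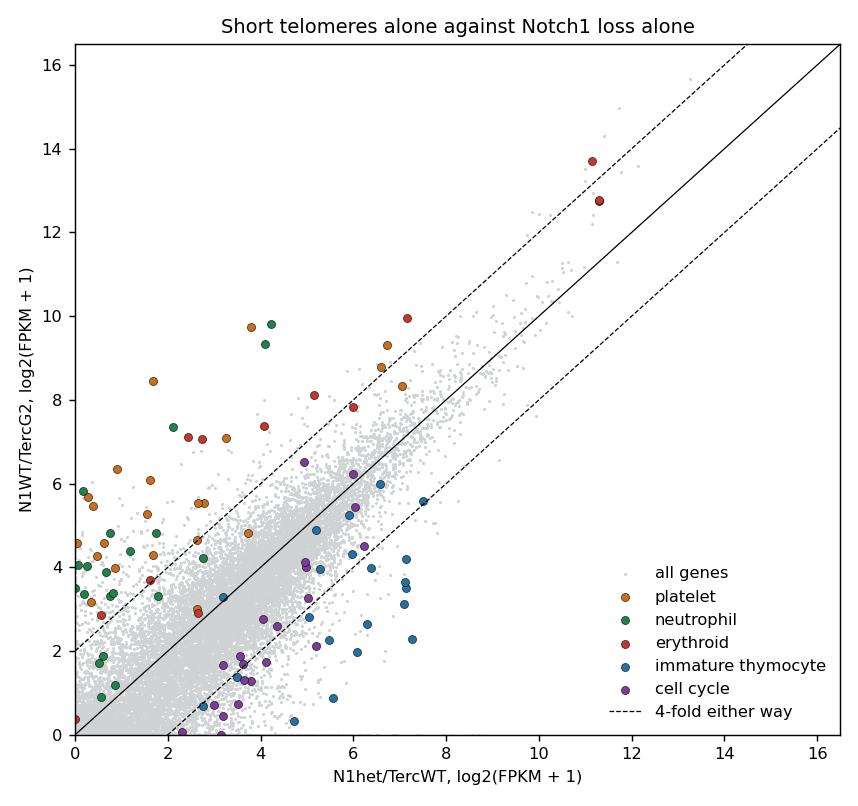
Each dot is 1 of 18073 genes, with its log2(FPKM + 1) level in N1het/TercWT valves on one axis and in N1WT/TercG2 valves on the other, and coloured dots are members of 5 lists. Platelet and neutrophil genes lie mostly above the upper 4-fold line and immature thymocyte genes mostly below the lower one.

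**Figure D2:**
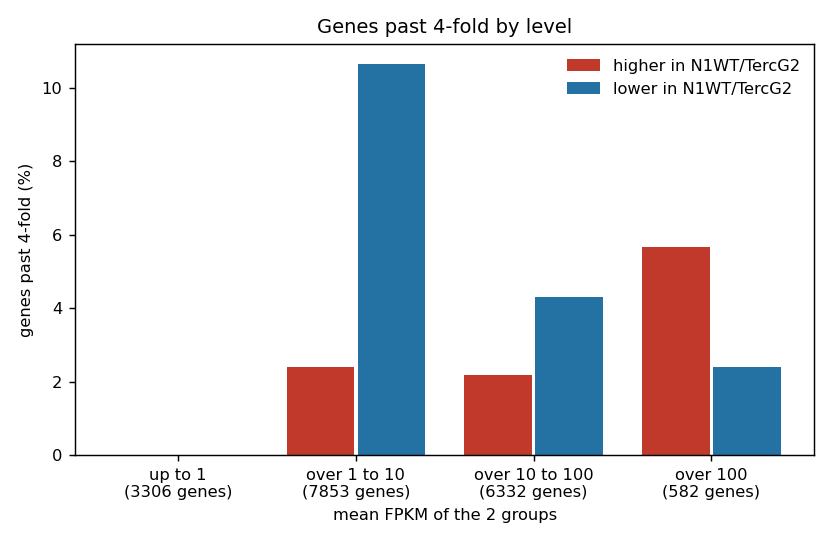
Bars give the percentage of genes past 4-fold, higher or lower in N1WT/TercG2 valves, in 4 bins of the mean FPKM of the 2 groups. A gene with a mean up to 1 FPKM cannot be past 4-fold on the FPKM + 1 scale, so the first bin is empty by construction. Lower genes were more frequent between 1 and 10 FPKM (10.7% against 2.39% higher) and between 10 and 100 FPKM (4.30% against 2.195%). Higher genes were more frequent above 100 FPKM (5.67% against 2.41% lower).

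Many of the genes that separated these groups by the largest amounts belong to blood cells. Small RNAs and genes with clone or predicted names were left out of the ranking that follows. Of the 15 genes with the largest positive differences among those at 10 FPKM or more, 7 are on the platelet list and 4 on the neutrophil list. Of the 15 with the largest negative differences, 5 are on the T cell or immature thymocyte lists. With no names left out, T cell receptor alpha joining segments made up 9 of the 15 largest negative differences, and none of the 15 was on a list. Of the ranked genes on no list, Gchfr, a regulator of the enzyme that starts tetrahydrobiopterin synthesis, stood at 44.3 FPKM in N1WT/TercG2 and 1.03 FPKM in N1het/TercWT valves, with 1.73 FPKM in N1het/TercG2 and 32.2 FPKM in N1WT/TercWT valves. Mgst2, a microsomal glutathione transferase, stood at 0.710 FPKM in N1WT/TercG2 and 27.98 FPKM in N1het/TercWT valves. Cdca7, a gene of dividing cells, stood at 0.0277 FPKM in N1WT/TercG2 and 18.7 FPKM in N1het/TercWT valves, and the authors' deposited table calls it different between N1WT/TercG2 and N1WT/TercWT valves. The valve tissue lists, described further on, differed by smaller amounts. Blood and thymus cells are not valve tissue, and in bulk RNA fewer cells of a type and less RNA per cell cannot be told apart.

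Platelet genes were higher in N1WT/TercG2 valves in all 22 measured members, 19 of them past 4-fold, with a relative median of 3.76. Gp9, part of the receptor by which platelets bind von Willebrand factor, stood at 346 FPKM in N1WT/TercG2 and 2.21 FPKM in N1het/TercWT valves, a difference of 6.75, the largest positive one in the ranking above. Ppbp, a chemokine stored in platelet granules, stood at 849.9 FPKM in N1WT/TercG2 and 12.9 FPKM in N1het/TercWT valves, with 85.9 FPKM in N1het/TercG2 and 1636 FPKM in N1WT/TercWT valves. Tubb1, the tubulin of the platelet's marginal band, stood at 50.1 FPKM in N1WT/TercG2 and 0.215 FPKM in N1het/TercWT valves. Apart from Ppbp, these genes were close to absent in N1het/TercWT valves. Gp1bb, another subunit of the von Willebrand factor receptor, had 80.1 FPKM in N1WT/TercG2 and 0.863 FPKM in N1het/TercWT valves, though its exons share bases with Sept5 on the same strand. In the other groups Gp9 stood at 20.8 FPKM in N1het/TercG2 and 531 FPKM in N1WT/TercWT valves. The 2 groups labelled Notch1 heterozygous were therefore low and the 2 labelled Notch1 wild type high. Summed FPKM over the list was 3264 in N1WT/TercG2 and 399 in N1het/TercWT valves. Against the shared N1WT/TercWT group, the platelet list had a median as deposited of -0.26 in N1WT/TercG2 and -3.51 in N1het/TercWT valves. Coagulation factor V (F5), which platelets also carry, showed the same order, with 49.6 FPKM in N1WT/TercG2 and 0.928 FPKM in N1het/TercWT valves. No member of the platelet list was lower in N1WT/TercG2 valves. The platelet lipoxygenase Alox12 stood at 66.5 FPKM in N1WT/TercG2 and 2.08 FPKM in N1het/TercWT valves, and Treml1, a receptor of platelet granules, at 23.1 FPKM in N1WT/TercG2 and 0.0235 FPKM in N1het/TercWT valves.

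Promoters of Gp9 and Ppbp are shown because these genes had the largest differences of the platelet list. The promoter of Gp6, a list member outside the ranking above, was added to them. All are 300 bases long, 250 before to 50 after the first listed transcription start, from RefSeq on build GRCm38.p6. Capitals mark the letters GGAAGT, a core that ETS factors recognise, and AGATAA, a core that GATA factors recognise, on either strand.
Gp9 promoter, chr6:87777820-87778119, plus strand: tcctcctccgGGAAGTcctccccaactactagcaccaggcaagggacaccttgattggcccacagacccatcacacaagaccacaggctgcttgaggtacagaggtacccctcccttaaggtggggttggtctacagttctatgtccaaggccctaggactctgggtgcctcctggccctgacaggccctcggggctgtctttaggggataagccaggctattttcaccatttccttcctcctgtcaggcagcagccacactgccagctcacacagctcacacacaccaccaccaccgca
Ppbp promoter, chr5:90768268-90768567, plus strand: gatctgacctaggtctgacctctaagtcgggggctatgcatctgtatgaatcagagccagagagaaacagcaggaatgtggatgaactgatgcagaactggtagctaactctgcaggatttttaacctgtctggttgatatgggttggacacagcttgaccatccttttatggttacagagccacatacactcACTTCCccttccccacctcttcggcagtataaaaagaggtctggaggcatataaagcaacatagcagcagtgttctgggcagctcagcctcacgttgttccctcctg
Gp6 promoter, chr7:4397695-4397994, minus strand: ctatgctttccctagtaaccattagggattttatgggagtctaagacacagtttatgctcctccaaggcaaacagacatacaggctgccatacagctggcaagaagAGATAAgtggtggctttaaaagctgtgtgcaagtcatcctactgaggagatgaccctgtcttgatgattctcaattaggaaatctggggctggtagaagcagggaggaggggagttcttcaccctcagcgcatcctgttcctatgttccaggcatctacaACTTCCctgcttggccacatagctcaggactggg
In these windows no match overlapped another, and only that of Gp6 held AGATAA. Of 17 platelet genes with a listed promoter, 9 (52.9%) held GGAAGT, against 24.1% of 27025 promoters, and 6 (35.3%) held AGATAA, against 11.4%. A match is a description of the letters and says nothing on binding.

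Neutrophil genes were higher in all 20 measured members, 14 past 4-fold, with a relative median of 3.52. S100a8 and S100a9 together form calprotectin. S100a8 stood at 892 FPKM in N1WT/TercG2 and 17.6 FPKM in N1het/TercWT valves. S100a9 stood at 648 FPKM in N1WT/TercG2 and 16.03 FPKM in N1het/TercWT valves, with 62.9 FPKM in N1het/TercG2 and 6.41 FPKM in N1WT/TercWT valves. Both were far below in N1het/TercWT valves. Retnlg, a secreted protein of neutrophils, stood at 163 FPKM in N1WT/TercG2 and 3.32 FPKM in N1het/TercWT valves. Stfa2l1, a stefin A family member, stood at 55.5 FPKM in N1WT/TercG2 and 0.131 FPKM in N1het/TercWT valves, and reads of its near-identical paralogs may be split among them. In contrast to the platelet genes, these were low in N1WT/TercWT valves, where S100a8 stood at 4.99 FPKM, and intermediate in N1het/TercG2 valves, at 77.4 FPKM. Summed FPKM over the list was 1949 in N1WT/TercG2 and 54.3 in N1het/TercWT valves, against 21.6 in N1WT/TercWT valves. The authors' deposited table calls S100a8, S100a9, Retnlg and Stfa2l1 different between N1WT/TercG2 and N1WT/TercWT valves, a comparison that shares only the first group with this one. Granule genes were among the members. Ngp stood at 15.6 FPKM in N1WT/TercG2 and 0.0480 FPKM in N1het/TercWT valves. Elane, neutrophil elastase, stood at 10.4 FPKM in N1WT/TercG2 valves and listed at 0 in N1het/TercWT valves. The matrix protease Mmp9, which neutrophils release, stood at 9.44 FPKM in N1WT/TercG2 and 0.753 FPKM in N1het/TercWT valves.

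The S100a9 and Ngp promoters are shown because both genes were high in N1WT/TercG2 valves. Capitals mark TTGCNNAA, a spacing that C/EBP factors recognise, on either strand.
S100a9 promoter, chr3:90695672-90695971, minus strand: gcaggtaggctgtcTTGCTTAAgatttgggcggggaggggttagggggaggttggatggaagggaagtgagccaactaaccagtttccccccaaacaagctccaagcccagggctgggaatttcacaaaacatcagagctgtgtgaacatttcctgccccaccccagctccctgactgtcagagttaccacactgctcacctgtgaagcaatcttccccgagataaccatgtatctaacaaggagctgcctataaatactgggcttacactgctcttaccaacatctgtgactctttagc
Ngp promoter, chr9:110419558-110419857, plus strand: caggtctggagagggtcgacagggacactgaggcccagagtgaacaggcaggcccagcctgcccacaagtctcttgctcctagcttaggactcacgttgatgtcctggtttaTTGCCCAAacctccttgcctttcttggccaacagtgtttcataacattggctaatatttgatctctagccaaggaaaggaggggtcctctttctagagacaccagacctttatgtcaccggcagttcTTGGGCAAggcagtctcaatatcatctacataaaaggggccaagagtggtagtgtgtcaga
Of 19 neutrophil genes with a listed promoter, 7 (36.8%) held TTGCNNAA, against 10.8% of all promoters. The S100a8 window held no match, which says only that these letters are not in it.

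Erythroid genes were higher in all 13 measured members, 8 past 4-fold, with a relative median of 2.65. Slc4a1 (the red cell anion exchanger) stood at 133 FPKM in N1WT/TercG2 and 5.67 FPKM in N1het/TercWT valves, with 20.7 FPKM in N1het/TercG2 and 18.2 FPKM in N1WT/TercWT valves. The carbonic anhydrase Car2 stood at 164 FPKM in N1WT/TercG2 and 15.9 FPKM in N1het/TercWT valves. The haemoglobin beta chain Hbb-b1 was the most abundant member, with 13395 FPKM in N1WT/TercG2 and 2269 FPKM in N1het/TercWT valves, and globin copies that are nearly identical may share its reads. Levels of Hbb-b1 in the other groups were 5935 FPKM in N1het/TercG2 and 5739.9 FPKM in N1WT/TercWT valves, so that N1WT/TercG2 was highest and N1het/TercWT lowest of the 4 groups.

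T cell genes went the other way. Of 21 measured members, 20 were lower and 1 higher in N1WT/TercG2 valves, and 13 were lower past 4-fold, with a relative median of -2.25. The costimulatory receptor Cd28 stood at 0.916 FPKM in N1WT/TercG2 and 46.4 FPKM in N1het/TercWT valves. Cd3g, a chain of the T cell receptor complex, stood at 6.12 FPKM in N1WT/TercG2 and 115 FPKM in N1het/TercWT valves. The coreceptor Cd8a stood at 32.5 FPKM in N1WT/TercG2 and 210.1 FPKM in N1het/TercWT valves. In N1WT/TercWT valves Cd28 stood at 3.74 FPKM and Cd8a at 21.4 FPKM, so that N1het/TercWT stood above the rest. Summed FPKM over the list was 541 in N1WT/TercG2 and 2644 in N1het/TercWT valves. Cytokine receptor Il7r was the member that was higher in N1WT/TercG2 valves, with 16.1 FPKM in N1WT/TercG2 and 10.4 FPKM in N1het/TercWT valves. On no list but among the 15 largest negative differences were Sit1 and Trat1, adaptors of T cell receptor signalling. Trat1 stood at 0.146 FPKM in N1WT/TercG2 and 23.6 FPKM in N1het/TercWT valves, and Sit1 was listed at 0 in N1WT/TercG2 and at 18.2 FPKM in N1het/TercWT valves.

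Genes of immature thymocytes, the T cell precursors of the thymus, were lower in 20 of 21 members, 14 past 4-fold, with a relative median of -2.06. Ccr9, a chemokine receptor of developing T cells, stood at 3.88 FPKM in N1WT/TercG2 and 154 FPKM in N1het/TercWT valves, with 1.03 FPKM in N1het/TercG2 and 21.7 FPKM in N1WT/TercWT valves. Bcl11b, a transcription factor needed for T cell commitment, stood at 0.839 FPKM in N1WT/TercG2 and 46.1 FPKM in N1het/TercWT valves, and Rag2, which cuts DNA for antigen receptor assembly, at 0.266 FPKM in N1WT/TercG2 and 25.2 FPKM in N1het/TercWT valves. All 3 stood higher in N1het/TercWT valves than in the other groups. Dntt, which adds bases at antigen receptor joints, stood at 10.3 FPKM in N1WT/TercG2 and 139 FPKM in N1het/TercWT valves, and Rag1 at 11.5 FPKM in N1WT/TercG2 and 138 FPKM in N1het/TercWT valves. Both are expressed in precursors and not in mature T cells. The single higher member was Ptcra, the surrogate alpha chain, at 8.73 FPKM in N1WT/TercG2 and 8.18 FPKM in N1het/TercWT valves, nearly equal. Against the shared N1WT/TercWT group the thymocyte list had a median as deposited of -0.17 in N1WT/TercG2 and 2.77 in N1het/TercWT valves. Summed FPKM over the list was 305 in N1WT/TercG2 and 1569 in N1het/TercWT valves.

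The Rag1 promoter is shown as an example of a gene that was high in N1het/TercWT valves. Capitals mark CAGCTG, an E-box core.
Rag1 promoter, chr2:101649483-101649782, minus strand: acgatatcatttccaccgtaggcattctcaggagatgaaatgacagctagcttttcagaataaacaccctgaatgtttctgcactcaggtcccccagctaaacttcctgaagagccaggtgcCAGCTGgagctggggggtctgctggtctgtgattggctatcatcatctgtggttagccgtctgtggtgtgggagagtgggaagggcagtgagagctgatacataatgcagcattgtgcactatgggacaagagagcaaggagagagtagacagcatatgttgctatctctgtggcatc
Of 16 thymocyte genes with a listed promoter, 5 (31.3%) held CAGCTG, against 16.1% of all promoters.

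**Figure D3:**
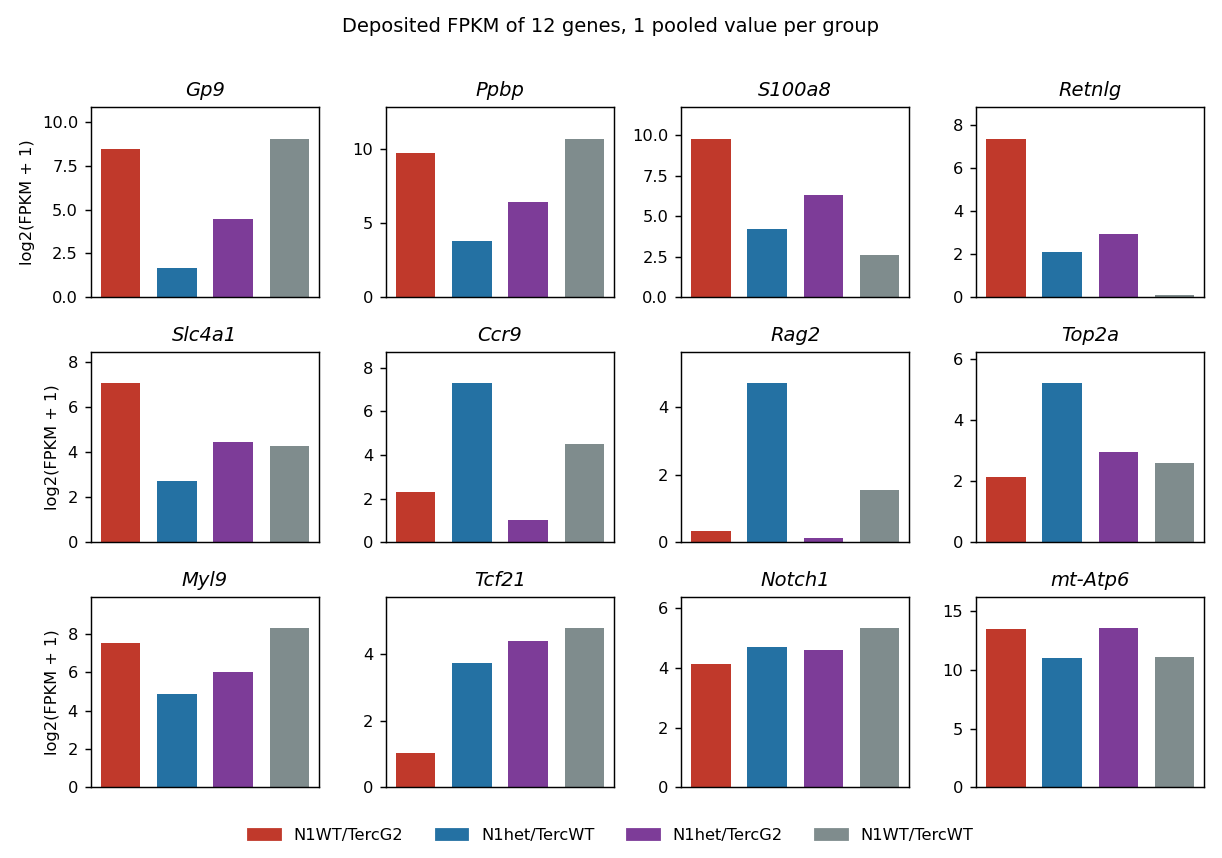
Bars give log2(FPKM + 1), starting at 0, of 12 genes in the 4 groups, in the order N1WT/TercG2, N1het/TercWT, N1het/TercG2 and N1WT/TercWT. Platelet genes are high in both Notch1 wild type groups, neutrophil genes in N1WT/TercG2 valves and thymocyte genes in N1het/TercWT valves.

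Other leukocyte lists differed less and had mixed directions. B cell genes were higher in 6 and lower in 11 of 17 members, with a relative median of 0.15, and of -0.19 as deposited, a sign that turned with median scaling. Macrophage and monocyte genes were higher in 9 and lower in 11 of 20 members, with a relative median of 0.26 and the same turn with median scaling. Ms4a7, a membrane protein of resident macrophages, stood at 15.3 FPKM in N1WT/TercG2 and 92.7 FPKM in N1het/TercWT valves. Dendritic cell and MHC class II genes were higher in 5 and lower in 9 of 14 members, with a relative median of 0.01, and Cd207, langerin, stood at 22.9 FPKM in N1WT/TercG2 and 4.40 FPKM in N1het/TercWT valves.

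The cell cycle list had 2 higher and 19 lower of 21 members, 9 lower past 4-fold, and a relative median of -1.42. Top2a, a topoisomerase of dividing cells, stood at 3.37 FPKM in N1WT/TercG2 and 35.6 FPKM in N1het/TercWT valves, with 6.70 FPKM in N1het/TercG2 and 4.98 FPKM in N1WT/TercWT valves. The spindle checkpoint kinase Bub1b stood at 0.656 FPKM in N1WT/TercG2 and 10.5 FPKM in N1het/TercWT valves. Cdk1, the mitotic kinase, was listed at 0 in N1WT/TercG2 and at 7.79 FPKM in N1het/TercWT valves. Not all members had the same direction. Ccnb2, a mitotic cyclin, stood at 90.04 FPKM in N1WT/TercG2 and 29.4 FPKM in N1het/TercWT valves, the reverse direction, and the authors' deposited table calls it different between N1WT/TercG2 and N1WT/TercWT valves. Among replication-dependent histone genes, Hist1h2bf stood at 1.37 FPKM in N1WT/TercG2 and 56.2 FPKM in N1het/TercWT valves. Hist1h2bb stood at 0.284 FPKM in N1WT/TercG2 and 24.4 FPKM in N1het/TercWT valves, and Hist1h3g was listed at 0 in N1WT/TercG2 and at 33.5 FPKM in N1het/TercWT valves. Histone genes have near-identical copies, so that reads may be assigned to the wrong one. Thymocyte genes stood higher in N1het/TercWT valves beside these, with the sums given above, and their part in the cell cycle values was not tested.

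DNA damage signalling and repair genes were lower in 18 of 20 members, 3 past 4-fold, with a relative median of -0.80. H2afx, the histone variant marked at breaks, stood at 13.2 FPKM in N1WT/TercG2 and 109.9 FPKM in N1het/TercWT valves, with 29.7 FPKM in N1het/TercG2 and 60.05 FPKM in N1WT/TercWT valves. Lig4, which joins broken ends, stood at 1.39 FPKM in N1WT/TercG2 and 13.2 FPKM in N1het/TercWT valves, and Chek2, a checkpoint kinase, at 0.640 FPKM in N1WT/TercG2 and 6.22 FPKM in N1het/TercWT valves. The exception Mre11a, a nuclease subunit that processes broken ends, stood at 19.5 FPKM in N1WT/TercG2 and 7.25 FPKM in N1het/TercWT valves. Lig4 and Rag genes are also used in antigen receptor assembly, and thymocyte genes were higher in N1het/TercWT valves here too. Their part in the DNA damage values was not tested.

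Telomere genes were compared since the groups differ in Terc. Of 10 telomerase genes 3 were higher and 7 lower, with a relative median of -0.12, the Terc value included, and the sign as deposited turned where genes under a mean of 10 FPKM were left out. Tert, the catalytic subunit, stood at 0.0179 FPKM in N1WT/TercG2 and 1.66 FPKM in N1het/TercWT valves, and Ruvbl2, a helicase used to assemble telomerase, at 6.12 FPKM in N1WT/TercG2 and 15.9 FPKM in N1het/TercWT valves. Shelterin and end maintenance genes, which cap telomeres, were lower in 11 of 12 members, none past 4-fold, with a relative median of -0.27. As deposited their median was -0.61, near the -0.58 of all genes with a mean over 1 to 10 FPKM, of which 5520 of 7853 were lower. Pot1a, the single-strand binding protein, stood at 1.46 FPKM in N1WT/TercG2 and 6.70 FPKM in N1het/TercWT valves, and its close relative Pot1b, which limits end resection in mice, stood at 18.4 FPKM in N1WT/TercG2 and 10.3 FPKM in N1het/TercWT valves, the reverse direction.

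p53 target genes were higher in 15 of 20 members, none past 4-fold, with a relative median of 0.64. Cdkn1a, the p21 cell cycle inhibitor, stood at 280.3 FPKM in N1WT/TercG2 and 138 FPKM in N1het/TercWT valves, with 274 FPKM in N1het/TercG2 and 75.4 FPKM in N1WT/TercWT valves, lowest in the last. Plk2, a kinase induced by stress, stood at 98.6 FPKM in N1WT/TercG2 and 32.8 FPKM in N1het/TercWT valves. Trp53inp1 went the other way, with 9.79 FPKM in N1WT/TercG2 and 40.5 FPKM in N1het/TercWT valves. Senescence and secretory genes were higher in 8 of 12 members, 1 past 4-fold in each direction, with a relative median of 0.70. Igfbp3, which binds insulin-like growth factors, stood at 36.6 FPKM in N1WT/TercG2 and 8.96 FPKM in N1het/TercWT valves. Lmnb1, the member with the largest difference, was lower, with 1.94 FPKM in N1WT/TercG2 and 17.8 FPKM in N1het/TercWT valves. Members of this list were not sorted by the direction they take in senescence.

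Immediate early genes, which are transcribed within minutes of a stimulus, were higher in 16 of 20 members, none past 4-fold, with a relative median of 1.30. Fos stood at 295 FPKM in N1WT/TercG2 and 102 FPKM in N1het/TercWT valves, with 211 FPKM in N1het/TercG2 and 53.98 FPKM in N1WT/TercWT valves. The zinc finger gene Egr2 stood at 62.7 FPKM in N1WT/TercG2 and 20.3 FPKM in N1het/TercWT valves. The authors' deposited table calls Fos different between N1WT/TercG2 and N1WT/TercWT valves. Inflammatory cytokine and NF-kappaB genes were higher in 13 of 20 members, with a relative median of 0.73. Il6 stood at 5.52 FPKM in N1WT/TercG2 and 0.510 FPKM in N1het/TercWT valves, with 11.6 FPKM in N1het/TercG2 and 1.91 FPKM in N1WT/TercWT valves, and the neutrophil attractant Cxcl1 at 93.2 FPKM in N1WT/TercG2 and 35.1 FPKM in N1het/TercWT valves, while Tnfaip3, a brake on NF-kappaB, stood at 22.9 FPKM in N1WT/TercG2 and 60.5 FPKM in N1het/TercWT valves. Neutrophil genes were higher in N1WT/TercG2 valves beside these, with the sums given above, and their part in these values was not tested.

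The Fos promoter is shown because Fos was among the called genes. Capitals mark TGACG, a core of the site that CREB and ATF factors recognise.
Fos promoter, chr12:85473640-85473939, plus strand: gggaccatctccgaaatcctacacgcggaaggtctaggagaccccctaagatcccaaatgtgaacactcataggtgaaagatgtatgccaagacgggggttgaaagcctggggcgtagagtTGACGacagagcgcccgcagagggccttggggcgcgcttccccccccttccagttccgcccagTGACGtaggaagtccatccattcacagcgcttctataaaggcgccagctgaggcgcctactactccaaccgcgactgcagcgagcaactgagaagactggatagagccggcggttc
Of 16 immediate early genes with a listed promoter, 10 (62.5%) held TGACG, against 21.0% of all promoters. The CArG box, CCWWWWWWGG with W for A or T, was searched as well. It was held by 1 of the 16 (6.25%), against 1.57% of all promoters, and the Fos window held none.

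Interferon-stimulated genes had 5 higher and 13 lower of 18 members, with a relative median of -0.16. Rsad2 (viperin) was the member with the largest difference, at 149 FPKM in N1WT/TercG2 and 17.1 FPKM in N1het/TercWT valves, and Ifit3 stood in the reverse direction at 8.13 FPKM in N1WT/TercG2 and 25.6 FPKM in N1het/TercWT valves. Heat shock genes were lower in 10 of 13, with a relative median of -0.17, and Cryab, a small heat shock protein, stood at 239.5 FPKM in N1WT/TercG2 and 597 FPKM in N1het/TercWT valves. Oxidative stress enzymes were higher in 13 of 18, with a relative median of 0.78, and catalase (Cat) stood at 281 FPKM in N1WT/TercG2 and 86.7 FPKM in N1het/TercWT valves.

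Smooth muscle and myofibroblast genes were higher in 12 of 15 members, 2 past 4-fold, with a relative median of 1.12. Myl9, a regulatory light chain of smooth muscle myosin, stood at 188 FPKM in N1WT/TercG2 and 28.5 FPKM in N1het/TercWT valves, and the myosin heavy chain Myh11 at 24.1 FPKM in N1WT/TercG2 and 4.55 FPKM in N1het/TercWT valves. Both were higher still in N1WT/TercWT valves, with Myl9 at 314 FPKM and Myh11 at 83.6 FPKM. In N1het/TercG2 valves Myl9 stood at 64.9 FPKM and Myh11 at 14.05 FPKM. The order of the groups was that of the platelet genes Gp9 and Ppbp, and the part of platelets in these values was not tested. Against the shared N1WT/TercWT group the list had a median as deposited of -1.31 in N1WT/TercG2 and -2.09 in N1het/TercWT valves.

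Proteoglycan and elastic fibre genes, which make the valve's compressible and recoiling layers, were higher in 17 of 22 members, none past 4-fold, with a relative median of 0.999. Asporin (Aspn) stood at 28.5 FPKM in N1WT/TercG2 and 8.73 FPKM in N1het/TercWT valves, with 32.4 FPKM in N1het/TercG2 and 13.9 FPKM in N1WT/TercWT valves. Osteoglycin (Ogn) stood at 56.5 FPKM in N1WT/TercG2 and 25.4 FPKM in N1het/TercWT valves and the elastic fibre protein Fbln5 at 116 FPKM in N1WT/TercG2 and 54.5 FPKM in N1het/TercWT valves. Collagen genes were lower in 15 of 18 members as deposited, with a relative median of 0.16 and a median that turned sign with median scaling. Col1a1 stood at 61.3 FPKM in N1WT/TercG2 and 105 FPKM in N1het/TercWT valves and Col15a1 at 14.2 FPKM in N1WT/TercG2 and 29.5 FPKM in N1het/TercWT valves. Matrix proteases and inhibitors were higher in 14 of 17 members, 2 past 4-fold, with a relative median of 0.90. The inhibitor Timp4 stood at 15.2 FPKM in N1WT/TercG2 and 2.87 FPKM in N1het/TercWT valves. The protease Adamts8 stood in the reverse direction, at 3.29 FPKM in N1WT/TercG2 and 21.9 FPKM in N1het/TercWT valves. Valve interstitial cell and fibroblast genes were higher in 10 of 17 members, with a relative median of 0.53. Its member Thy1, which T cells carry as well, was lower past 4-fold, at 32.1 FPKM in N1WT/TercG2 and 216 FPKM in N1het/TercWT valves, with 24.3 FPKM in N1het/TercG2 and 43.04 FPKM in N1WT/TercWT valves. Tcf21, a transcription factor of fibroblasts, stood at 1.01 FPKM in N1WT/TercG2 and 12.3 FPKM in N1het/TercWT valves, with 20.1 FPKM in N1het/TercG2 and 26.2 FPKM in N1WT/TercWT valves, and the authors' deposited table calls it different between N1WT/TercG2 and N1WT/TercWT valves.

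Endothelial genes were higher in 12 of 17 members, 2 past 4-fold, with a relative median of 0.97. Cldn5, a tight junction protein, stood at 15.5 FPKM in N1WT/TercG2 and 2.33 FPKM in N1het/TercWT valves, with 17.8 FPKM in N1het/TercG2 and 2.60 FPKM in N1WT/TercWT valves, so the 2 groups with short telomeres were high. Kdr, a VEGF receptor, stood at 34.8 FPKM in N1WT/TercG2 and 9.87 FPKM in N1het/TercWT valves, with 41.9 FPKM in N1het/TercG2 and 12.6 FPKM in N1WT/TercWT valves, in the same order. Egfl7, a protein secreted by endothelial cells, stood at 64.2 FPKM in N1WT/TercG2 and 19.98 FPKM in N1het/TercWT valves. Pecam1, given above, was level, so members differed in how far they stood apart. Vwf is also stored in platelets, and it stood at 24.2 FPKM in N1WT/TercG2 and 5.17 FPKM in N1het/TercWT valves. BMP and TGF-beta signalling genes were higher in 17 of 26 members, with a relative median of 0.69, and valve transcription factors in 13 of 18, with 0.64. The shear-responsive factor Klf4 stood at 130.4 FPKM in N1WT/TercG2 and 54.6 FPKM in N1het/TercWT valves.

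Ventricular and general cardiomyocyte genes were lower in 17 of 20 members, none past 4-fold, with a relative median of -0.09. As deposited their median was -0.43, against 0.18 for all genes with a mean over 100 FPKM, though not every member is that abundant. Actc1, cardiac actin, stood at 1026 FPKM in N1WT/TercG2 and 1674 FPKM in N1het/TercWT valves. Atrial genes were higher in 9 of 12 members, with a relative median of 0.89, and the atrial light chain Myl7 stood at 47.1 FPKM in N1WT/TercG2 and 13.01 FPKM in N1het/TercWT valves. Bmp10, an atrial ligand, was listed at 0 in N1WT/TercG2 and at 0.162 FPKM in N1het/TercWT valves, with 0 in N1het/TercG2 and 35.9 FPKM in N1WT/TercWT valves, so it stood apart in the group with neither change. Mesothelial and epicardial genes were higher in 7 of 13 members (1.07), adipocyte genes in 10 of 12 (1.15), and Schwann and neural genes in 3 of 8 (-0.17), a median that turned sign as deposited where genes below 1 or 10 FPKM were left out. Melanocyte genes were lower in 9 of 9 members, with a relative median of -0.40, and Mlana stood at 6.56 FPKM in N1WT/TercG2 and 48.6 FPKM in N1het/TercWT valves.

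Notch pathway genes had mixed directions, and Notch1 itself, given above, went against its label in this pair. Notch ligands and receptors were higher in 4 and lower in 4 of 8 members, with a relative median of 0.29 and of -0.05 as deposited, a sign that turned with median scaling and with the mean filter. Dll4, an endothelial ligand, stood at 7.58 FPKM in N1WT/TercG2 and 1.96 FPKM in N1het/TercWT valves, with 6.39 FPKM in N1het/TercG2 and 2.34 FPKM in N1WT/TercWT valves. Notch2 stood at 34.6 FPKM in N1WT/TercG2 and 21.6 FPKM in N1het/TercWT valves. The ligand Jag1 stood at 5.41 FPKM in N1WT/TercG2 and 8.81 FPKM in N1het/TercWT valves. Of 7 target genes 4 were higher and 3 lower (0.49), and the endothelial target Hey2 stood at 4.04 FPKM in N1WT/TercG2 and 15.7 FPKM in N1het/TercWT valves, with 20.8 FPKM in N1het/TercG2 and 18.1 FPKM in N1WT/TercWT valves. Hes1 stood at 32.3 FPKM in N1WT/TercG2 and 20.8 FPKM in N1het/TercWT valves. Cofactors and modifiers were higher in 8 and lower in 10 of 18 members, 2 past 4-fold, with a relative median of 0.15 and a sign as deposited that turned with median scaling. Fringe glycosyltransferases modify the receptor. Lfng stood at 0.483 FPKM in N1WT/TercG2 and 4.94 FPKM in N1het/TercWT valves. Rfng stood at 1.13 FPKM in N1WT/TercG2 and 8.996 FPKM in N1het/TercWT valves. The related Mfng stood at 15.2 FPKM in N1WT/TercG2 and 8.14 FPKM in N1het/TercWT valves, the reverse direction.

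Calcification genes were compared because Notch1 loss is known for valve calcification. Osteoblast genes were higher in 6 of 11 members, with a relative median of 0.38. As deposited the median turned below 0 when mitochondrial genes were left out of the scaling. The listed genes Sp7, Bglap, Ibsp and Dmp1 had no row, and 5 of the 11 measured members are also on other lists. Spp1, osteopontin, stood at 8.63 FPKM in N1WT/TercG2 and 8.35 FPKM in N1het/TercWT valves, a difference of 0.04 that turned sign with scaling without mitochondrial genes, close to 8.18 FPKM in N1WT/TercWT valves, against 130.2 FPKM in N1het/TercG2 valves. Spp1 was therefore high in the group with both changes, and low and close to each other in both groups with a single change. Bmp2 stood at 7.15 FPKM in N1WT/TercG2 and 18.9 FPKM in N1het/TercWT valves, with 42.5 FPKM in N1het/TercG2 and 15.4 FPKM in N1WT/TercWT valves. Bmp6, a ligand that can promote bone formation, stood at 53.5 FPKM in N1WT/TercG2 and 24.4 FPKM in N1het/TercWT valves. Mineralisation inhibitors were higher in 6 of 10 members (0.41), with the matrix Gla protein Mgp at 2489 FPKM in N1WT/TercG2 and 3275 FPKM in N1het/TercWT valves. Chondrocyte genes were higher in 8 of 18 members, with a relative median of 0.17 whose sign as deposited turned with a filter at a mean of 10 FPKM, and Cilp, a cartilage matrix protein, stood at 24.1 FPKM in N1WT/TercG2 and 9.68 FPKM in N1het/TercWT valves.

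Mitochondrial, ribosomal and clock genes complete the lists. The 4 protein-coding genes of the mitochondrial genome that have a row were higher, 2 past 4-fold, with a relative median of 2.29, and mt-Atp6 stood at 11607 FPKM in N1WT/TercG2 and 2050.2 FPKM in N1het/TercWT valves. In N1het/TercG2 valves mt-Atp6 stood at 11898 FPKM, so both groups with short telomeres were high. Nuclear respiratory chain genes were lower in 15 of 22 members as deposited, with a relative median of 0.11 and a median that turned sign with median scaling, and the complex IV subunit Cox5a stood at 201 FPKM in N1WT/TercG2 and 329.7 FPKM in N1het/TercWT valves. Cytosolic ribosomal protein genes were lower in 14 of 24 as deposited, with a relative median of 0.25 and a median that turned sign with median scaling. Circadian clock genes were lower in 10 of 16 (0.01, with a sign that turned with the mean filter), and Cry1, a clock repressor, stood at 0.835 FPKM in N1WT/TercG2 and 14.01 FPKM in N1het/TercWT valves.

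**Figure D4:**
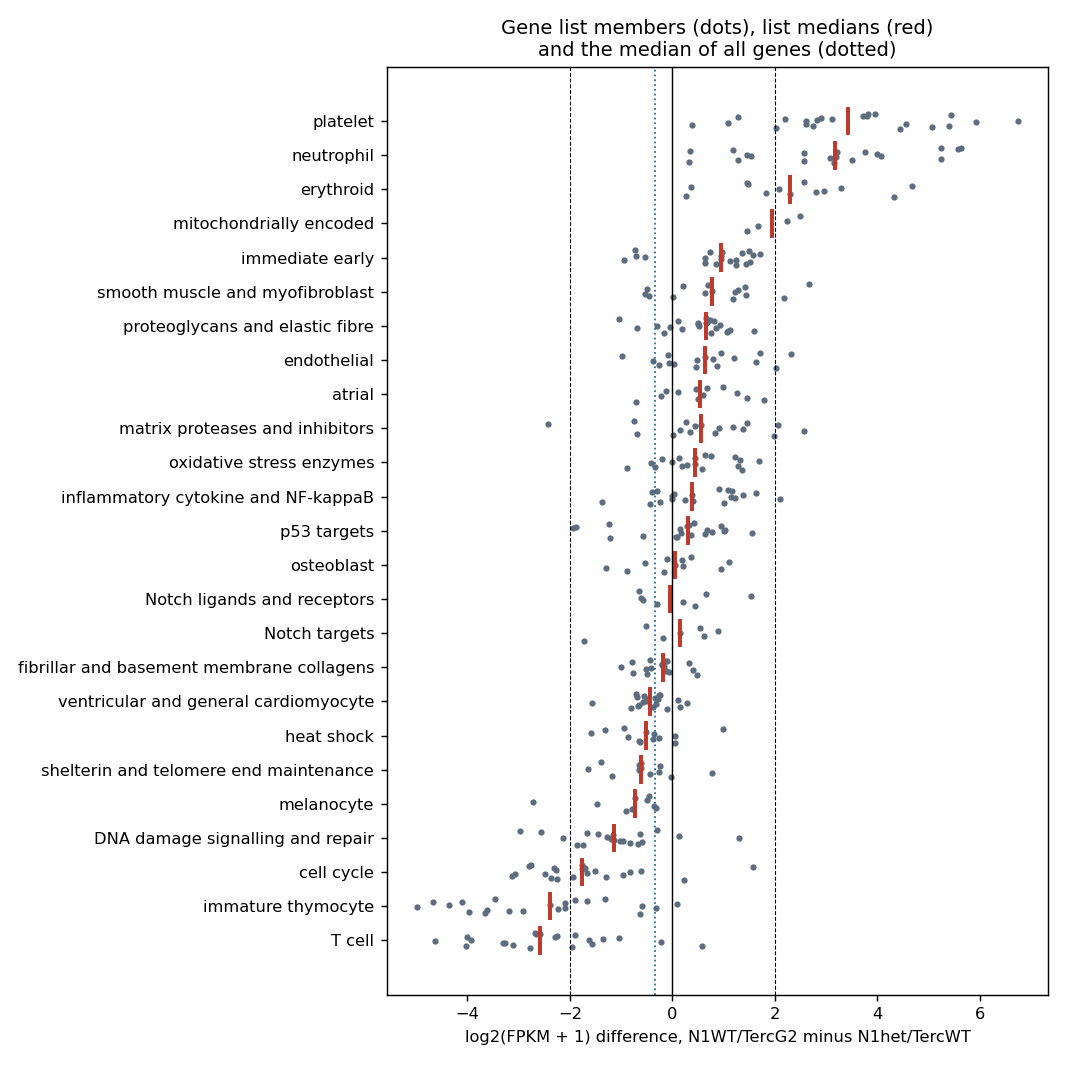
Each row is a gene list, each dot the log2(FPKM + 1) difference of 1 member, red marks are list medians and the dotted line is the median of all genes, -0.34. Platelet, neutrophil and erythroid lists lie to the right, and T cell, immature thymocyte and cell cycle lists lie to the left.

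**Figure D5:**
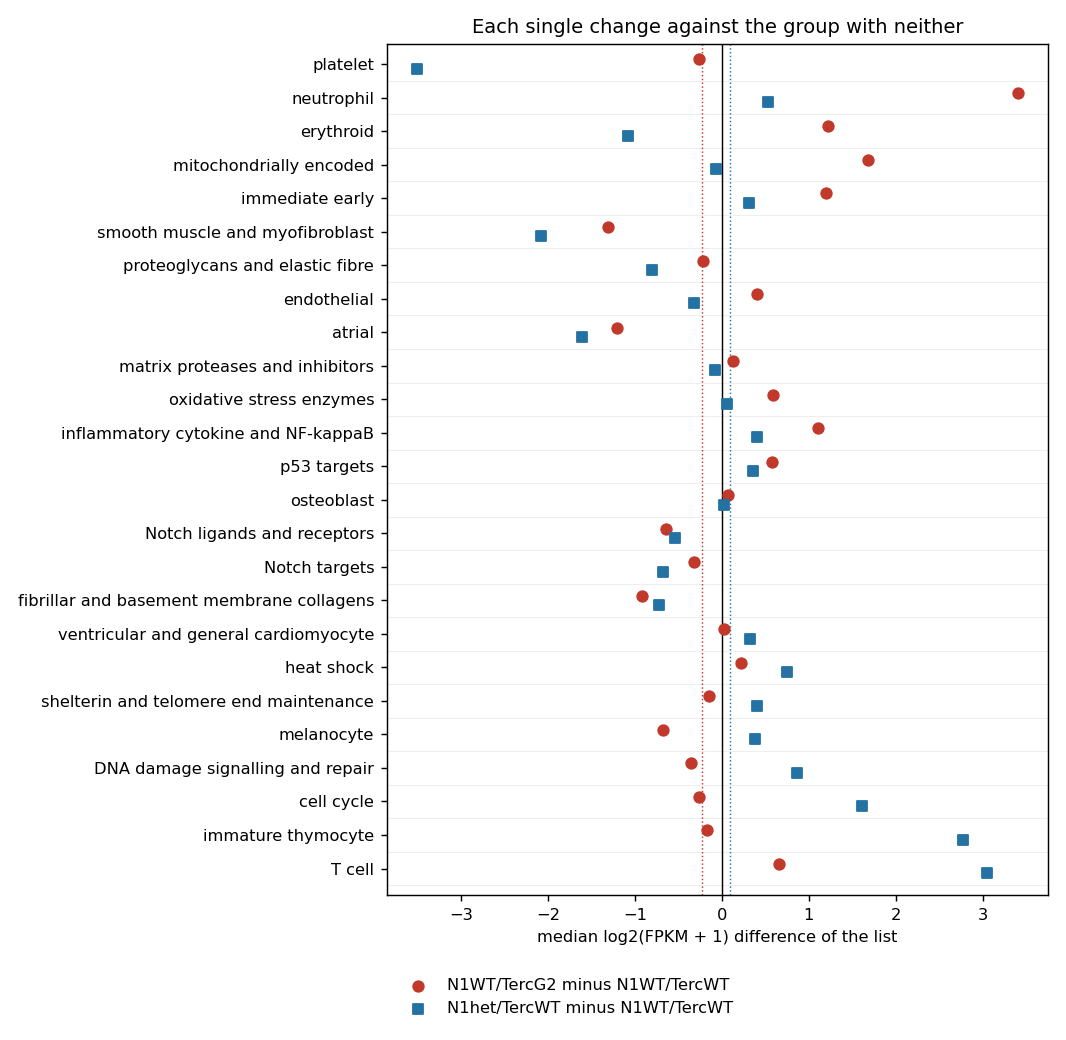
Circles give the median log2(FPKM + 1) difference of each list for N1WT/TercG2 minus N1WT/TercWT valves, and squares the same for N1het/TercWT minus N1WT/TercWT valves. The subtracted group is the same in both, so the 2 marks of a row share it. Platelet genes lie near 0 for N1WT/TercG2 and at -3.51 for N1het/TercWT, and T cell genes at 0.65 and 3.05.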

How the data were processed

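RNA of aortic valve leaflets was made into cDNA with random and poly-T primers, amplified linearly and sequenced, per the labels' protocols. The submitters' processing notes name FastQC, TopHat, SAMtools, Picard and build mm9 with no roles, and which tool made the values was not given. Values are FPKM, and per the file headers the authors deposited 1 of them for each gene in each group. Libraries had thus been combined before deposit, and neither depth nor spread is known. Tests planned for values per library could not be run, and intervals need counts.

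Groups came from the genotype labels. From the FPKM values log2(FPKM + 1) differences and counts past 4-fold were computed with Python (3.11.15) with pandas 2.3.3 and numpy 2.4.6, and drawn with matplotlib 3.10.9, and the code was tested on simulated data. A further 5 deposited columns hold 0 or 1 and are read as the authors' calls. The single column naming N1WT/TercG2 and N1WT/TercWT, with 124 called genes, is used, and no column names the pair compared here.

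The comparison and the 43 gene lists were chosen with earlier results of these data known. Named genes were Notch1 and Terc, the 15 with the largest differences in each direction among genes at 10 FPKM or more without clone or predicted names, and from each list the 4 members with the largest differences at 1 FPKM or more. Some of the genes so chosen are not reported here. Any other member named was picked with its value in view. The lists hold 668 distinct genes, and 33 listed symbols had no row in the table. IDs of 16962 genes (93.9%) matched the GENCODE M21 annotation of GRCm38, and promoters came from RefSeq on GRCm38.p6, so no position of the mm9 values is given. Of 187 named genes, 42 share exon bases with another gene there. A value of 0 may be a failed estimate.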

Additional observations from a re-analysis of the deposited data

How the results depend on the processing

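No paired analysis was possible because each group has 1 pooled value per gene, and for the same reason no replicate could be left out. The counts of genes past 4-fold depended on the pseudocount, with 707 higher and 3312 lower at 0.1 FPKM and 74 and 102 at 10 FPKM. A mean of at least 10 FPKM gave 172 and 286, leaving out genes listed at 0 in either group gave 660 lower, a 2-fold limit gave 1364 and 4144, and an 8-fold limit gave 125 and 359. Median scaling gave 459 and 1003, so that the share of higher genes among those past the limit was 31.4%, against 24.3% as deposited, and it ran between 17.6% with a pseudocount of 0.1 and 42.0% with a pseudocount of 10. It was 21.6% with scaling without mitochondrial genes. Median scaling moved the median of all genes to -0.18, against -0.34 as deposited. The following list medians, not taken relative to all genes, changed sign. With 1 FPKM or more in either group, Schwann and neural stood at 0.0868. With a mean of 10 FPKM or more, Schwann and neural stood at 0.0868, Notch ligands and receptors at 0.0426, telomerase at 0.0309, chondrocyte at 0.38 and circadian clock at 0.0416. With median scaling, B cell stood at 0.0560, macrophage and monocyte at 0.13, Notch ligands and receptors at 0.13, Notch cofactors at 0.0327, collagens at 0.0369, nuclear respiratory chain at 0.0146 and cytosolic ribosomal proteins at 0.16. With scaling without mitochondrial genes, osteoblast stood at -0.0203. Median scaling divides N1WT/TercG2 values by 0.842, so list medians slightly below 0 as deposited rise above it. Filters leave fewer genes in a list, and the effect of that number was not tested. Of the settings run, only median scaling and scaling without mitochondrial genes can change the direction of a single gene. None of the 187 genes chosen by rule changed direction. Their differences were larger than the shifts of these scalings, so none could turn, and this is no check of them. With a mean of 10 FPKM or more, 116 of them had a value. Of the other list members named, Spp1 and Pecam1, nearly level as deposited, turned to -0.0203 and -0.0448 with scaling without mitochondrial genes. The platelet, neutrophil, erythroid, T cell, thymocyte and cell cycle medians kept their direction under the settings that gave them a value. Without blood cell lists, only the cell cycle median of these has a value. These medians lie far from 0, the nearest being cell cycle at -1.76 as deposited. The scalings shift values by less than that and could not turn them. Low values are the least certain, since depth is unknown and linear amplification of little RNA adds noise.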

Other observations

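The genes in these paragraphs were picked with their values in view. All 51 T cell receptor alpha joining segments with a row were lower in N1WT/TercG2 valves, 46 past 4-fold. Their median was 0 FPKM in N1WT/TercG2 and 53.5 FPKM in N1het/TercWT valves, against 0 in N1het/TercG2 and 2.39 FPKM in N1WT/TercWT valves. The segments are short and lie together in 1 locus, so they are not independent. Of 53 histone genes, 49 were lower, 23 past 4-fold, with a median as deposited of -1.60. Of 116 small nucleolar RNA genes, 88 were lower, 58 past 4-fold, with a median of -2.01, and of 20 mitochondrial tRNA genes 19 were higher, with a median of 1.27. Small RNAs are shorter than most sequenced fragments, which limits what FPKM says of them.

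The genes that follow are abundant and on no list. Bpgm, which makes the red cell's bisphosphoglycerate, stood at 272 FPKM in N1WT/TercG2 and 43.3 FPKM in N1het/TercWT valves, the mitochondrial iron carrier Slc25a37 at 459 FPKM in N1WT/TercG2 and 90.7 FPKM in N1het/TercWT valves, and Ube2l6 at 411 FPKM in N1WT/TercG2 and 57.3 FPKM in N1het/TercWT valves. Cytl1, a secreted protein of cartilage, stood at 652 FPKM in N1WT/TercG2 and 172 FPKM in N1het/TercWT valves. Inhba, a subunit of activin, stood lower, at 13.5 FPKM in N1WT/TercG2 and 89.7 FPKM in N1het/TercWT valves, against 92.5 FPKM in N1het/TercG2 and 43.2 FPKM in N1WT/TercWT valves.

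Genes beside the targeted genes in the reference annotation were also examined. Of 20 measured neighbours of Terc, 9 were higher and 11 lower, with 1 past 4-fold in each direction and a median of -0.25. The higher one, AC122037.1, stood at 109 FPKM in N1WT/TercG2 and 5.56 FPKM in N1het/TercWT valves, against 2.23 FPKM in N1het/TercG2 and 7.47 FPKM in N1WT/TercWT valves, so it was not high in the other Terc null group. Of 20 neighbours of Notch1, 9 were higher and 11 lower, none past 4-fold.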
